A study of Mus musculus with 6 samples.

Results

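The genes described here were 32 genes of homologous recombination and of the Fanconi anemia pathway, chosen by name and function, with earlier results of these data known. A gene was represented by the probe set that carried its symbol alone and had the highest mean over the arrays. By this rule 30 of the 32 were measured, among 18193 genes in all. Rbbp8 and Xrcc2, the other members, had no probe set under their symbol alone in the table used here. RNA had been taken from the proximal colon of 3 control mice, labelled wildtype, and 3 Hnf4α mutant littermates at 1 year of age, kept free of specific pathogens and given ketamine and xylazine before they were killed. The RNA of each mouse was hybridised to an Affymetrix mouse array of its own. The mutants carried floxed Hnf4α alleles and Cre driven by the Villin promoter, which acts in the gut epithelium and not in the muscle, stroma or leukocytes of the same tissue. Whether the controls carried a floxed allele or Cre is not given in the sources used here. Values are log2 signals, so a difference of 1 is a doubling, and fold changes are mutant minus control.

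Homologous recombination mends a broken chromosome by copying the sister chromatid, so it works mainly after DNA has been replicated. The broken end is trimmed to single-stranded DNA, BRCA1 and BRCA2 bring the recombinase to it, and motor proteins help the filament invade the intact copy. The Fanconi pathway removes crosslinks between the strands: a core complex attaches ubiquitin to the FANCI-FANCD2 pair, and the resulting break is handed to homologous recombination. Many of these genes are transcribed most in S and G2 phase, in the colon mainly in the dividing cells of the crypt base.

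Control arrays and mutant arrays differed in other ways that touch every value below. Hnf4a fell in the mutants by 1.94 on the log2 scale (limma adjusted p = 0.000788), though where its probe set lies relative to the deleted part was not analysed here. Mutant replicates 2 and 3 are labelled male and all other mice female. Yet Xist, the RNA of the inactive X, had log2 signals of 9.94 to 10.96 across controls and 5.03 to 5.32 across all mutants, and Y-linked genes reached 5.35 to 8.12 in every mutant. Judged by RNA, each control was female and each mutant male, mutant replicate 1 included, so that genotype and sex cannot be told apart here. Y-linked genes stood between 2.75 and 4.01 in the controls, which marks the signal of absent RNA for those probe sets alone. In the mutants, male by their RNA, Xist kept 5.03 to 5.32, so that such a signal differs between probe sets. A mean above 4.01 can therefore still be background. A mean at or under 4.01 is called near background below. Relative to the control mean, 14 smooth muscle markers had a median of -4.07 in mutant replicate 2, against -0.30 and -0.46 in replicates 1 and 3, and that of 15 markers of fibroblasts and matrix was -3.13, -0.30 and -0.59 in mutant replicates 2, 1 and 3. Mutant replicate 2 stood apart in these genes, and the main counts are also given without it. Leaving it out did not remove the difference. Then 10 of the 14 smooth muscle markers and 5 of the 15 of fibroblasts and matrix were lower at a limma p of 0.05 or less before adjustment. The share of all genes was 5.61%, and the median fold changes of the 2 lists were -0.37 and -0.42. The 12 gut epithelium markers had medians of 0.05, 0.20 and 0.19 in mutant mice 1, 2 and 3.

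RefSeq promoter windows of GRCm38.p6, from 250 bases before to 50 bases after a transcription start, were at hand for 24 of the 32 members, in 26 windows. Fancd2, Exo1, Nbn, Rad50, Rad54b, Tex15, Rbbp8 and Xrcc2 had none in that table. The windows below are 1 of the 2 of Rad54l, which passed the test, and those of Claspn, Brca1 and Brca2, which were among the members with the larger fold changes, and of Fancg and Topbp1, which carry an E2F word. They are written 5′ to 3′ on the strand of the gene, and capitals mark E2F words (TTTCCCGC, TTTCGCGC, TTTGCCGC or TTTGGCGC) and the CCAAT box, on either strand.
Rad54l, chr4:116123641-116123940, minus strand: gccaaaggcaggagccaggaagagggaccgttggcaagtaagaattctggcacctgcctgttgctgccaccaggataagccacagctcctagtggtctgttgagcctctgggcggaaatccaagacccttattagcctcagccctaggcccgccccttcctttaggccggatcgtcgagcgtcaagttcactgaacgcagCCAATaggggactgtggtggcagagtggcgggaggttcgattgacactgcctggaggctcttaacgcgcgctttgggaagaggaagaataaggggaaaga
Claspn, chr4:126556730-126557029, plus strand: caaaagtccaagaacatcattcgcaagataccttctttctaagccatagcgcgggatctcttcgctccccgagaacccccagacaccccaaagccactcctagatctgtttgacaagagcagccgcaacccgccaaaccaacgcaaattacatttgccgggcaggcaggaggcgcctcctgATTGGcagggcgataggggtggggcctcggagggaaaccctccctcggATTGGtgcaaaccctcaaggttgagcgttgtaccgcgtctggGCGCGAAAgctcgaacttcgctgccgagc
Brca1, chr11:101551906-101552205, minus strand: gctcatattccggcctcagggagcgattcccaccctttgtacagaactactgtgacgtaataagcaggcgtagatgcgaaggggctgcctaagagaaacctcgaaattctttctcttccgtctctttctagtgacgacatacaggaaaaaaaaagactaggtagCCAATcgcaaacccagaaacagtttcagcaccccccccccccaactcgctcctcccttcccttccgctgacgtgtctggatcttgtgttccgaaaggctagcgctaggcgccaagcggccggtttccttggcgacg
Brca2, chr5:150522371-150522670, plus strand: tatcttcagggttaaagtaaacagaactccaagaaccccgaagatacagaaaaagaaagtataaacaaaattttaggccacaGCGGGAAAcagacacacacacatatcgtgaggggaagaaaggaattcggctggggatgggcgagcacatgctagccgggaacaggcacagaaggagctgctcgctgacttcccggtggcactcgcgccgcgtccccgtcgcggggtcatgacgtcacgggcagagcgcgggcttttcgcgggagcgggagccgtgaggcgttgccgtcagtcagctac
Fancg, chr4:43010252-43010551, minus strand: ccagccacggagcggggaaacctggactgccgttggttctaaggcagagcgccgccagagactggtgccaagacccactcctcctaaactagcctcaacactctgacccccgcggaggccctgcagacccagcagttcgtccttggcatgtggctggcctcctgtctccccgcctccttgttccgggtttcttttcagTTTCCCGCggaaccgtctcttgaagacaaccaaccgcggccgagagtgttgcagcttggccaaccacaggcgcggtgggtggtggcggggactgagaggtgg
Topbp1, chr9:103305077-103305376, plus strand: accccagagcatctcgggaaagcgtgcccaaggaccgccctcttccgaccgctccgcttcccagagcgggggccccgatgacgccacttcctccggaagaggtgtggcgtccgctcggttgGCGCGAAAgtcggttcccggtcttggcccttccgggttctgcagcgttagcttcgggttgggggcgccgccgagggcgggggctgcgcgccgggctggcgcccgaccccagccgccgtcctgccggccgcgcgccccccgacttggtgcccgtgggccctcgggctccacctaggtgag

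E2F factors switch on genes for DNA replication as cells enter S phase, and NF-Y, which binds the CCAAT box, is common at promoters of cell cycle genes. An E2F word was found in 8 of the 26 windows of the members (30.8%), those of Bard1, Brca2, Chek2, Claspn, Fancg, Rad51c and Topbp1, and in 2.26% of all 32851 windows of the table. The word starts at position -52 from the start site in Fancg, -129 in Topbp1, -168 in Brca2 and 22 in Claspn. A CCAAT box was found in 61.5% of the windows of the members and in 37.4% of all windows. The CHR element of G2 phase genes (TTTGAA) was found in 3.85% and 17.9%, and the HNF4 word CAAAGTCCA in 0 of the 26 windows and in 0.475% of all windows. With so rare a word, 26 windows would seldom hold a match, so the 0 cannot show that HNF4 sites are absent. Both strands were searched for each word. Of the members listed as transcribed mainly in S and G2 phase 4 of 13 windows held an E2F word, and so did 4 of 13 windows of the other members. A match is a run of letters and not a measured binding site.

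As a group the members stood higher in the mutants, by a small amount in most of them. Of the 30 measured, 29 had a positive fold change, against 60.4% of all genes, and the median log2 fold change was 0.32 against 0.051 over all genes. Tex15 and Rad54l rose by the limma test at an adjusted p under 0.05, which is 2 of 30, and none fell (background over all genes 0.484% higher and 0.396% lower). At an unadjusted p of 0.05 or less from the same limma fit 15 members were higher, which is 50% of those measured, against 10.0% of all genes, and 0 were lower, against 6.18% of all genes. In 16 members the 3 mutants lay above the 3 controls (background 14.5%), and in 0 they lay below (background 8.86%). The mean over all 6 arrays, which chose the probe set of a gene, includes the mutants, and in Brca1, Claspn and Fancg another probe set was brighter in the controls. With the probe set of highest control mean for every gene, a choice added after the data were seen, 12 members were higher at a limma p of 0.05 or less before adjustment (background 9.87%), 13 had mutants above controls (background 14.3%) and the median was 0.25. Tex15 and Rad54l again passed the adjusted test (background 0.473%). Without mutant replicate 2 this choice gave 8 members higher before adjustment (background 6.20%). With 3 mice a group an exact two-sided permutation test cannot give a p under 0.1.

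The same count was smaller without mutant replicate 2. Then 11 members were higher at a limma p of 0.05 or less before adjustment (background 6.29%), all of them among the 15, and 0 were lower (background 5.61%). Tex15 and Rad54l still passed the adjusted test (background 0.236% higher), 28 of the 30 fold changes were positive, and the median was 0.26 against 0.032 over all genes. Mutant replicate 2 was the highest of the mutants in 20 of the 30 members (66.7%), against 44.5% of all genes. The median over the members, relative to the control mean, was 0.22 in mutant replicate 1, 0.46 in mutant replicate 2 and 0.32 in mutant replicate 3.

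**Figure D1:**
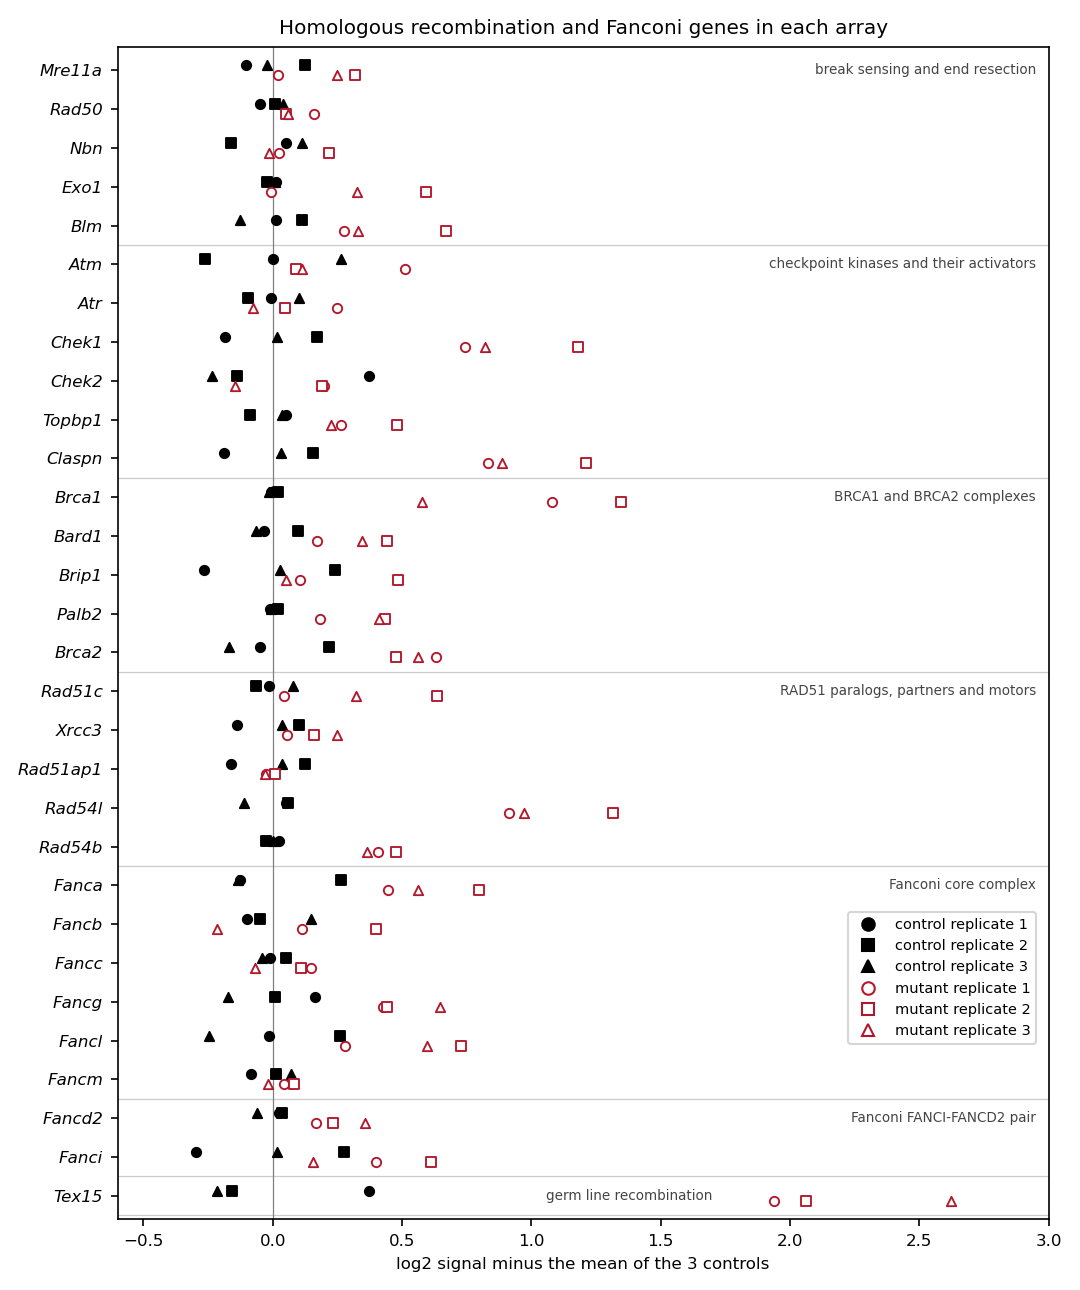
Log2 signal of the 30 measured members in each of the 6 arrays, as the difference from the mean of the 3 controls (horizontal axis), with the members grouped by role (filled symbols, controls; open symbols, mutants; the shape gives the replicate). The mutants lie clear of the controls in Chek1, Claspn, Brca1, Rad54l and Tex15, and mutant replicate 2, the open square, is the highest mutant in 20 of the 30.

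Tex15, which male germ cells need for meiotic break repair and for transposon silencing, had the largest fold change of the members. Its log2 signal was 6.18, 5.65 and 5.59 in control mice 1, 2 and 3, and 7.74, 7.87 and 8.43 in mutant mice 1, 2 and 3. Each mutant stood more than 1 log2 unit above each control, and mutant replicate 3 was the highest. The controls averaged 5.80 ± 0.32 (SD, n = 3) and the mutants 8.01 ± 0.37 (SD, n = 3), so that the log2 fold change was 2.21 (SE 0.23, limma adjusted p = 0.0174), which is 4.62-fold. Without mutant replicate 2 it was 2.28 (limma adjusted p = 0.0441). The adjusted p was 0.0553 without control replicate 1, 0.065 without control replicate 3 and 0.0555 without mutant replicate 3, all from limma, while the fold change stayed between 2.0 and 2.39 whichever array was left out. Tex15 had 1 probe set, so no second one could be set beside it.

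Other genes of meiosis did not pass the test. Of 12 genes of meiotic recombination and the synaptonemal complex 0 passed the adjusted limma test, 2 were higher at p of 0.05 or less before adjustment (16.7%, against 10.0% of all genes) and 0 lower, and 7 had both group means near background. Their median fold change was 0.080, with medians of 0.079, 0.16 and 0.018 in mutant mice 1, 2 and 3. Tex11, which acts in meiotic crossing over, had 0.33 (limma adjusted p = 0.311) and Sycp1, a strut of the synaptonemal complex, 0.29 (limma adjusted p = 0.380). The difference between Tex15 and these genes was not itself tested. All mutants were male by their RNA, and the part of sex in the value of Tex15 was not tested.

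**Figure D2:**
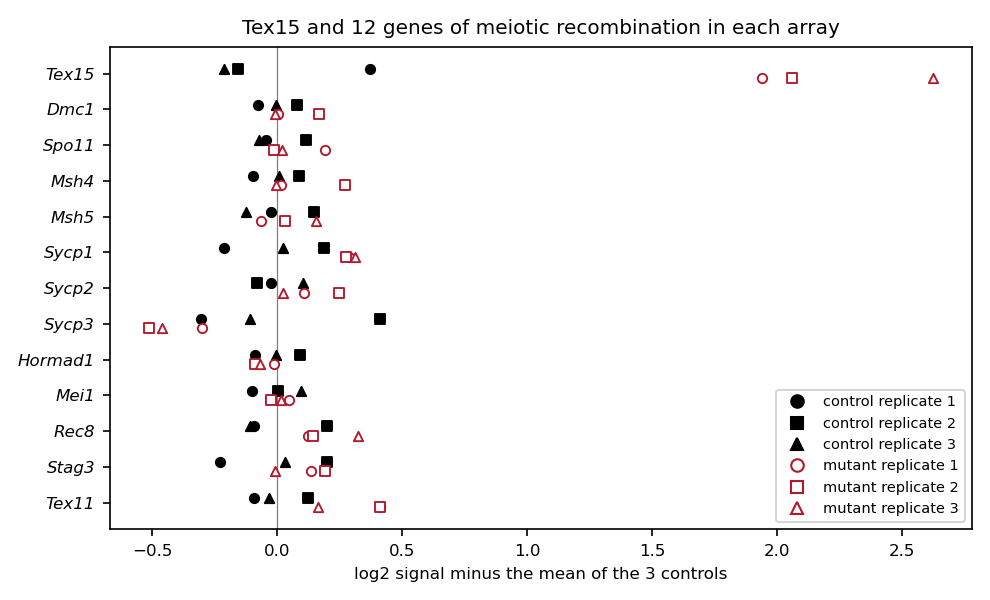
Log2 signal of Tex15 and of 12 genes of meiotic recombination in each array, as the difference from the mean of the 3 controls (horizontal axis; filled symbols, controls; open symbols, mutants; the shape gives the replicate). Tex15 stands at 1.94, 2.06 and 2.62 in mutant replicates 1, 2 and 3. The log2 fold changes of the other 12 run from -0.43 (Sycp3) to 0.33 (Tex11), and 7 of these genes have both group means near background.

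Among the partners of the recombinase, Rad54l rose. Rad54l is the motor that remodels the filament and chromatin during strand invasion. Its log2 signal was 5.71, 5.72 and 5.55 in control mice 1, 2 and 3, and 6.57, 6.98 and 6.63 in mutant mice 1, 2 and 3. The groups did not overlap, and the controls lay close together. The log2 fold change was 1.07 (SE 0.13, 95% interval 0.75 to 1.38, limma adjusted p = 0.0309), which is 2.09-fold. It was 0.94 without mutant replicate 2 (limma adjusted p = 0.0478). The call was lost in each of the other fits that left an array out, with adjusted p-values from limma of 0.148, 0.0512 and 0.11 without control replicates 1, 2 and 3 and of 0.0558 and 0.123 without mutant replicates 1 and 3. The fold change stayed between 0.94 and 1.14 in these fits. It also rests on 1 probe set of 4: the others had log2 fold changes of 0.27, 0.10 and 0.37, the last 2 near background.

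Its relative Rad54b was near background in both groups, at 3.36, 3.31 and 3.34 in control mice 1, 2 and 3, and 3.74, 3.82 and 3.70 in mutant mice 1, 2 and 3. The mutants lay above the controls (log2 fold change 0.42, limma adjusted p = 0.119), but a level near background may understate a difference. Rad51c, a paralog of the recombinase that helps the filament form, stood at 5.70, 5.65 and 5.79 in the controls and 5.76, 6.35 and 6.04 in mutant replicates 1, 2 and 3, so that mutant replicate 1 overlapped the controls (0.33, limma adjusted p = 0.424). Xrcc3, another paralog, had 0.16 and Rad51ap1, which helps the filament pair with DNA, had -0.015 (limma adjusted p = 0.562 and 0.962). The probe sets of Rad51ap1 did not give 1 direction. Its brightest probe set was the single one of its 4 with a negative fold change, and the others had 0.94, 0.63 and 0.46 (lowest limma adjusted p = 0.0978).

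Of the 6 checkpoint genes 3 were higher at a limma p of 0.05 or less before adjustment (10.0% of all genes), Chek1, Claspn and Topbp1, and none passed the adjusted test. Chek1 is the kinase that halts the cycle when replication stalls, and Claspn (claspin) is the adaptor through which ATR activates it. Chek1 stood at 5.41, 5.76 and 5.61 in control mice 1, 2 and 3, and 6.34, 6.78 and 6.42 in mutant mice 1, 2 and 3. Claspn stood at 5.28, 5.62 and 5.50 in the controls and 6.30, 6.68 and 6.35 in the mutants, in the same order. In both genes every mutant lay above every control, and mutant replicate 2 was the highest. The log2 fold change of Claspn was 0.98 (SE 0.14, 95% interval 0.64 to 1.32, limma adjusted p = 0.0504) and that of Chek1 0.92 (SE 0.15, 95% interval 0.55 to 1.28, limma adjusted p = 0.0698), so neither passed the adjusted test. Without mutant replicate 2 they were 0.86 and 0.78 (limma adjusted p = 0.0964 and 0.125). The probe set of Claspn was chosen through its mutant signal, and its other probe set, brighter in the controls (mean 5.64 against 5.47), had 0.25 (limma adjusted p = 0.527).

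Topbp1, which stimulates ATR at stalled forks, stood at 7.67, 7.53 and 7.65 in the controls and 7.88, 8.10 and 7.84 in mutant replicates 1, 2 and 3, again without overlap (0.32, limma adjusted p = 0.293). The 3 kinases besides Chek1 did not pass the test. Atr, which senses single-stranded DNA, had a log2 fold change of 0.074, Atm, which senses double-strand breaks, 0.24, and Chek2, the kinase that ATM activates, 0.082 (limma adjusted p = 0.811, 0.588 and 0.870). In all 3, by the probe set used, the mutants overlapped the controls. Atr had 2 further probe sets with negative values, -0.31 and -0.39. In the first of these the mutants lay below the controls (limma adjusted p = 0.407), and the second was near background in both groups.

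Of the 5 measured genes of the BRCA1 and BRCA2 complexes, 4 were higher at a limma p of 0.05 or less before adjustment (10.0% of all genes) and none passed the adjusted test. Brca1, the ubiquitin ligase subunit that steers breaks to recombination, stood at 4.70, 4.73 and 4.69 in control mice 1, 2 and 3, and 5.79, 6.05 and 5.29 in mutant mice 1, 2 and 3. The controls lay almost together, whereas the mutants were spread widely, mutant replicate 3 the lowest. The log2 fold change was 1.00 (SE 0.19, limma adjusted p = 0.0969), and 0.83 without mutant replicate 2 (limma adjusted p = 0.169). This probe set was the brightest of its 4 through the mutants. The one brightest in the controls (mean 5.12 against 4.71) had 0.033 (limma adjusted p = 0.904), and the others had 0.68 and 0.39. Bard1, the partner of BRCA1 in the ligase, was near background in both groups, with 3.61, 3.74 and 3.58 in the controls and 3.82, 4.09 and 3.99 in mutant replicates 1, 2 and 3 (0.32, limma adjusted p = 0.303).

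Brca2, which loads the recombinase, stood at 5.31, 5.58 and 5.19 in control mice 1, 2 and 3, and 5.99, 5.84 and 5.92 in mutant mice 1, 2 and 3. The groups did not overlap, and mutant replicate 2 was the lowest of the mutants here, unlike in most members. The log2 fold change was 0.56 (SE 0.12, limma adjusted p = 0.145), and 0.60, which is larger, without mutant replicate 2. Palb2, which joins BRCA1 to BRCA2, stood at 4.17, 4.20 and 4.18 in the controls and 4.37, 4.62 and 4.59 in mutant replicates 1, 2 and 3 (0.34, limma adjusted p = 0.253). Its controls lay almost on 1 value and all mutants stood above them. Brip1, the helicase bound to BRCA1, overlapped (0.21, limma adjusted p = 0.619) and was near background in the controls.

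The genes that sense and trim the break had the lowest median, 0.20, of the groups with 5 or 6 measured genes. Mre11a, Rad50 and Nbn form the complex that binds broken ends, and their log2 fold changes were 0.20, 0.090 and 0.075 (limma adjusted p = 0.510, 0.681 and 0.808). In Rad50 the mutants lay just above the controls, and in Mre11a and Nbn the groups overlapped. Exo1, the nuclease of long-range resection, stood at 4.80, 4.77 and 4.80 in the controls and 4.78, 5.38 and 5.12 in mutant mice 1, 2 and 3. Mutant replicate 1 was at the level of the controls, and the fold change was 0.30 (limma adjusted p = 0.455). Blm, the helicase that dissolves joint molecules, stood at 4.53, 4.63 and 4.39 in the controls and 4.79, 5.19 and 4.84 in mutant replicates 1, 2 and 3, with no overlap (0.43, limma adjusted p = 0.278).

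In the Fanconi core complex 3 of 6 measured genes were higher at a limma p of 0.05 or less before adjustment (10.0% of all genes), and none passed the adjusted test. Fanca, which scaffolds the complex, stood at 5.56, 5.95 and 5.55 in control mice 1, 2 and 3, and 6.13, 6.48 and 6.25 in mutant replicates 1, 2 and 3 (log2 fold change 0.60, limma adjusted p = 0.183). Fancg, which binds FANCA, stood at 5.80, 5.64 and 5.46 in the controls and 6.06, 6.08 and 6.28 in the mutants (0.51, limma adjusted p = 0.174). Fancl, the ubiquitin ligase of the complex, stood at 7.40, 7.68 and 7.17 in the controls and 7.70, 8.15 and 8.01 in the mutants (0.53, limma adjusted p = 0.281). The other probe set of Fancg was brighter in the controls (mean 5.79 against 5.63) and had 0.16 (limma adjusted p = 0.694). In all 3 genes, by the probe set used, the mutants lay above the controls, in Fancl by the narrow gap between mutant replicate 1 and control replicate 2. Fancc had 0.064 and Fancm, the helicase that anchors the complex to DNA, 0.035, with overlap in both. Fancb lies on the X chromosome, which bears on a comparison of females with males, and had 0.099 (limma adjusted p = 0.824), or -0.051 without mutant replicate 2. Its other probe set had 0.58 (limma adjusted p = 0.284), with a control mean of 3.69, near background, or 0.37 without mutant replicate 2.

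Of the pair that the core complex modifies, Fancd2 stood at 5.14, 5.16 and 5.06 in the controls and 5.29, 5.35 and 5.47 in mutant replicates 1, 2 and 3, a small difference without overlap (0.25, limma adjusted p = 0.341). Fanci overlapped, at 5.34, 5.91 and 5.65 in the controls and 6.03, 6.25 and 5.79 in the mutants (0.39, limma adjusted p = 0.422). Without mutant replicate 2 neither of the pair reached p of 0.05 before adjustment.

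**Figure D3:**
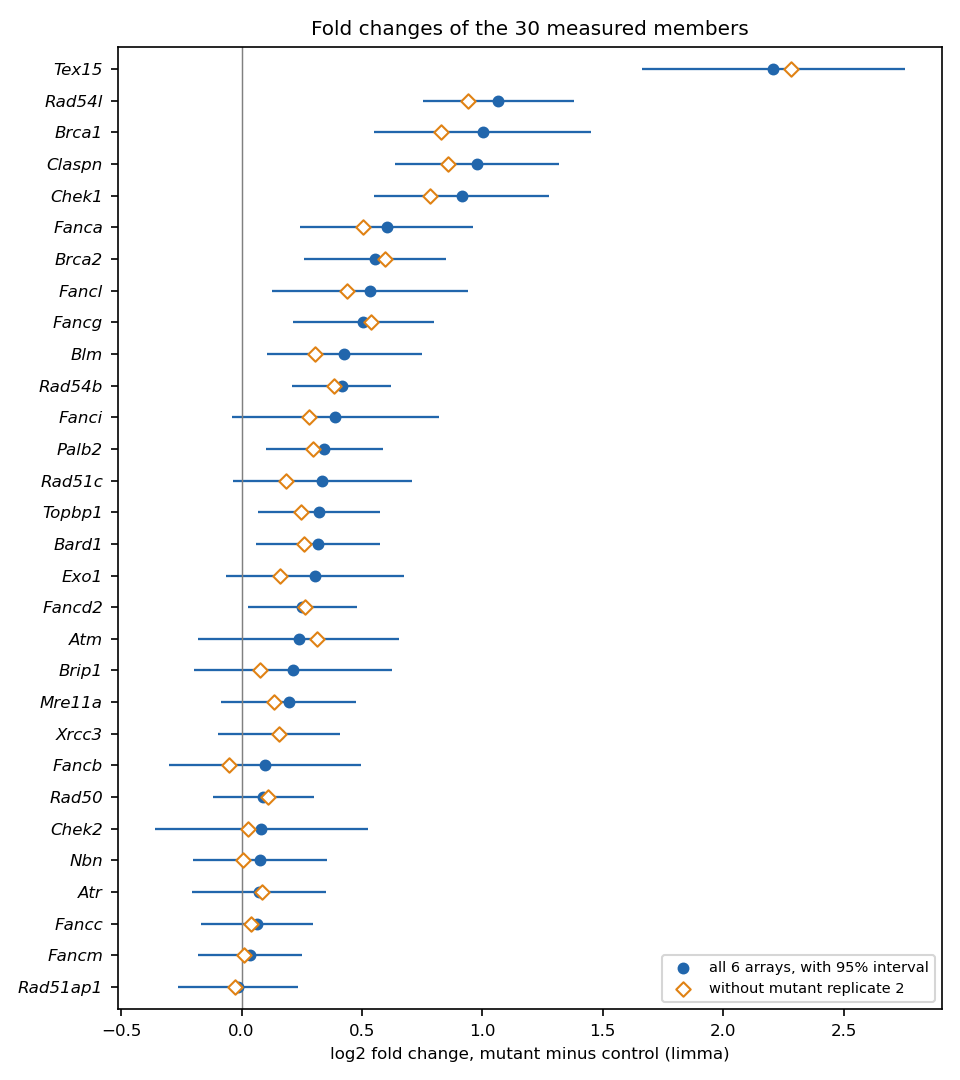
Log2 fold change (horizontal axis) of each measured member, from limma with all 6 arrays (circle, with a line for its 95% interval) and without mutant replicate 2 (diamond). Tex15 at 2.21 stands apart, Rad54l, Brca1, Claspn and Chek1 lie near 1, and Rad51ap1 at -0.015 is the single negative value with all arrays.

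The order of the members by fold change has few firm steps. Tex15 had an interval of 1.66 to 2.75, above those of all others. Rad54l, Brca1, Claspn and Chek1 followed with 1.07 down to 0.92, and their intervals overlapped almost wholly. Including these, 9 members had a log2 fold change of 0.5 or more. The 15 members that were not higher at a limma p of 0.05 or less before adjustment had intervals reaching from -0.36 to 0.82, so that some of them may differ by as much as Fanca did in these arrays.

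Probe sets of the same gene gave the direction more steadily than the size. The 30 members had 66 probe sets, of which 61 had a positive fold change (57.8% of all probe sets tested). At a limma p of 0.05 or less before adjustment 25 were higher (7.77% of all) and 0 were lower (5.23% of all). In 52 the mean was above 4.01 in at least 1 group. Of 21 members with more than 1 probe set, 17 had positive values in all of them, and Atr, Fancc, Fancd2 and Rad51ap1 were the exceptions. The 5 probe sets of Chek1 ran from 0.069 to 0.92, and the 2 of Claspn had 0.98 and 0.25. The probe set used had the largest fold change of the gene in 16 of the 21, Rad54l, Brca1, Claspn and Chek1 among them, and the smallest in 3, Rad51ap1, Fancb and Fancm.

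**Figure D4:**
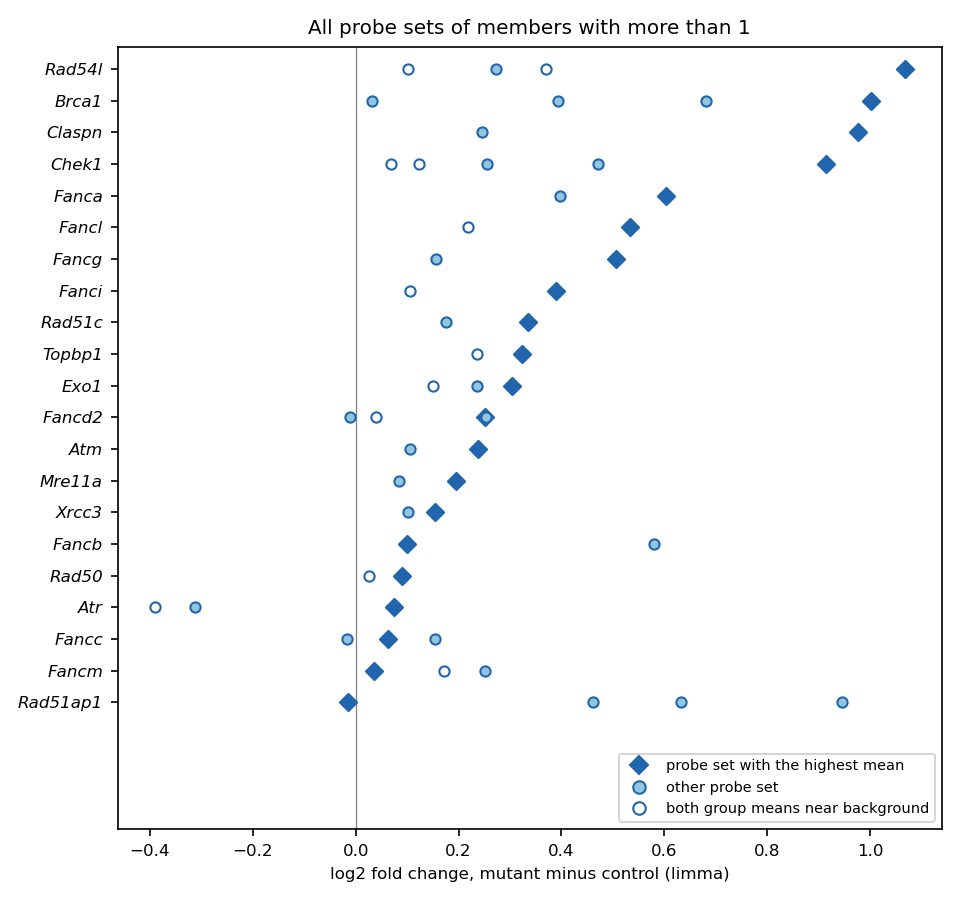
Log2 fold change from limma of every probe set of the 21 members with more than 1 (diamond, the probe set with the highest mean, which represents the gene; circle, other probe sets; open circle, both group means near background). In Rad54l, Brca1, Claspn and Chek1 the diamond lies farthest to the right, whereas in Rad51ap1 it lies at -0.015 and the other 3 at 0.46 to 0.94.

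Members listed as transcribed mainly in S and G2 phase were compared with the rest by count. The list was chosen with earlier results of these data known, and the phase of cells was not measured here. It held Exo1, Blm, Chek1, Topbp1, Claspn, Brca1, Bard1, Brip1, Brca2, Rad51ap1, Rad54l, Fanca, Fancd2 and Fanci. Of 14 such members 10 were higher at a limma p of 0.05 or less before adjustment and 10 had mutants above controls, against 10.0% and 14.5% of all genes, with a median fold change of 0.41. Of the 16 others 5 were higher and 6 had mutants above controls, with a median of 0.18. Without mutant replicate 2 the counts at that p were 7 of 14 and 4 of 16, against 6.29% of all genes, and the medians 0.29 and 0.14. The difference between these 2 sets was not tested. Markers of dividing cells were higher too. Of 24 of them, such as replication and mitosis genes, 21 were higher and 0 lower at a limma p of 0.05 or less before adjustment (10.0% and 6.18% of all genes), with a median of 0.78, and Cdc6, which loads the replicative helicase (1.03, limma adjusted p = 0.0252), and Bub1b, a spindle checkpoint kinase (0.78, limma adjusted p = 0.0425), rose. Without mutant replicate 2 the median was 0.61, 18 were higher at an unadjusted p and 0 passed the adjusted limma test. The median of the dividing cell markers was 0.65, 1.11 and 0.62 in mutant replicates 1, 2 and 3, and that of the S and G2 phase members 0.34, 0.60 and 0.35, highest in mutant replicate 2 in both. In the other members it was 0.17, 0.27 and 0.18. In whole tissue, more dividing cells and more RNA of these genes per cell cannot be told apart. The part of the lower muscle and matrix RNA of the mutants, lowest in mutant replicate 2, in these values was not tested.

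**Figure D5:**
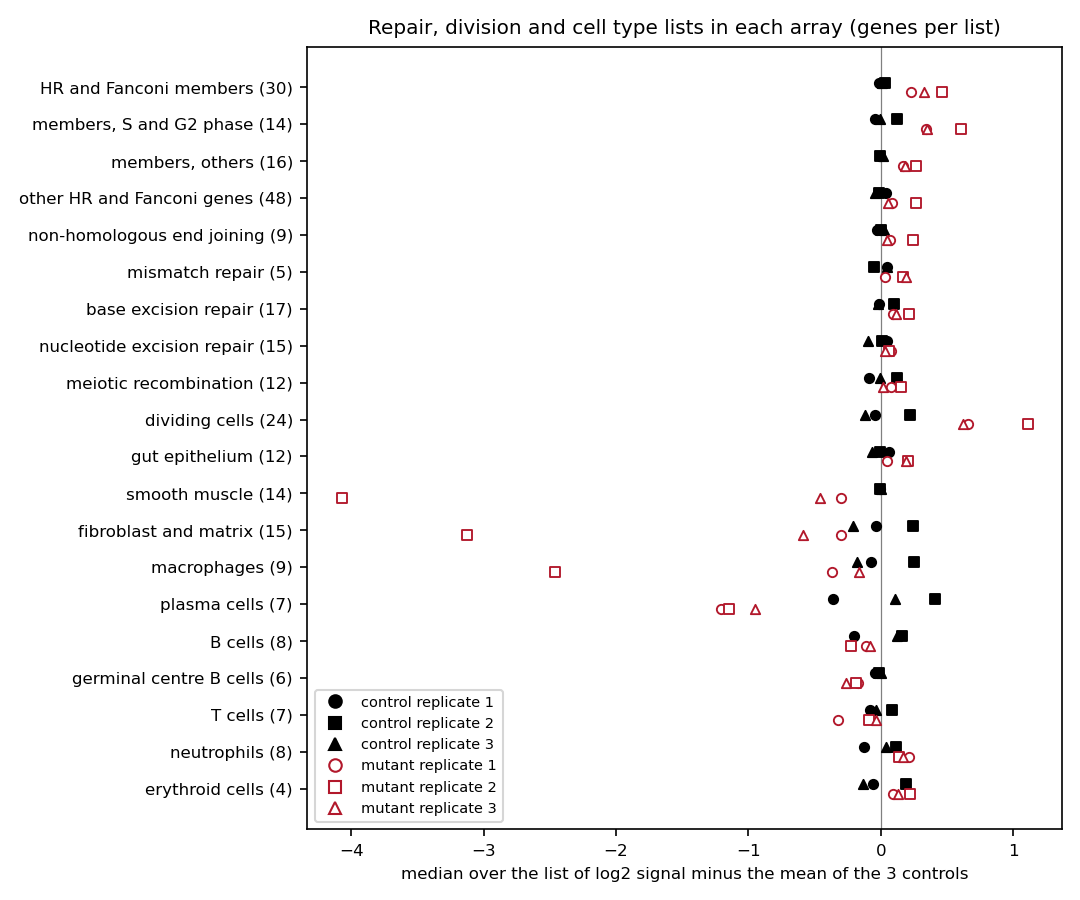
Median over each gene list in each array, as the difference in log2 signal from the mean of the 3 controls (horizontal axis; filled symbols, controls; open symbols, mutants). The open square of mutant replicate 2 stands highest for the dividing cell markers, at 1.11, and for the members, at 0.46, and lowest for smooth muscle, at -4.07.

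Further genes of the same pathways, taken from a list of 50 of which 48 were measured, had a lower median. In this list 37 had a positive fold change (77.1%), with a median of 0.14, or 0.056 without mutant replicate 2. Hells, a chromatin remodeller with a role in break repair and in DNA methylation, was the single one that passed the adjusted test (1.23, SE 0.17, limma adjusted p = 0.0439), and it did not pass without mutant replicate 2 (1.07, limma adjusted p = 0.0650). Among the 48, at an unadjusted p of 0.05 or less from limma 8 were higher (16.7%, against 10.0% of all genes) and 1 was lower. Of the other repair pathways none had a gene past the adjusted limma test. Non-homologous end joining, which joins broken ends without a template, had 2 of 9 genes higher at an unadjusted p (22.2%), Xrcc5 (0.53) and Xrcc6 (0.29), the subunits of the Ku ring that caps the ends (adjusted p = 0.174 and 0.316). Mismatch repair had 1 of 5 higher (20%), Msh6, which reads the mismatch (0.42, limma adjusted p = 0.220), and none lower, with Mlh3 at 0.18 (limma adjusted p = 0.483). Base excision repair had 2 of 17 higher (11.8%, close to the share of all genes), Ung, which removes uracil (0.54, limma adjusted p = 0.0904), and Aptx, which clears failed ligations (0.50, adjusted p = 0.370). Nucleotide excision repair had 3 of 15 higher (20%), among them Gtf2h4, a subunit of TFIIH (0.41, adjusted p = 0.275), and 1 lower, Xpa, which verifies the lesion (-0.38, limma adjusted p = 0.296). Medians were 0.12, 0.13, 0.16 and 0.042 in the order given, below the 0.32 of the members, a difference that was not tested. The 48 further genes of the members' own pathways had 0.14, within the range of these lists. The members had been chosen with earlier results of these data known, so 0.32 may not stand for the whole pathways.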

How the data were processed

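Colon RNA of 6 mice, 1 mouse an array, was measured on Affymetrix Mouse Genome arrays. The deposited values are log2 signals, which the authors made with RMA (background correction, quantile normalization between arrays and median polish over the probes of a probe set); the version of RMA and the build are not given in the sources used here. RMA sets the arrays to a common distribution (medians 5.43 to 5.53), so values are relative to all other RNA of an array, and it compresses low signals. The number of arrays limits the precision.

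Of the probe sets, 64 controls were dropped and the other 45037 compared by limma 3.58.1 in R 4.3.3, mutant minus control, with p-values adjusted over all of them (Benjamini-Hochberg). The platform annotation gave 34945 of them 1 symbol, 932 several and 9160 none. The unadjusted threshold is the p of the study's methods, which set it on a SAM test and not on limma. The study's list of modulated transcripts also required a least ratio, which was not used here. The fit was tested on simulated data. Named are all measured members, the check genes and, from each other repair list and the dividing cell list, the genes that passed the adjusted test or, with none, the 2 of smallest p. The members and lists were chosen with earlier results of these data known. Nothing in the labels says that arrays shared a batch. Alternatives were the leaving out of each array, the replicate number as a block, array weights, an intensity trend, a filter on dim probe sets and quantile normalization. Others were the mean of a gene's probe sets, no _s_at, _a_at or _x_at probe sets (28 members, without Brca2 and Fanca), no X or Y genes and SAM. The probe set of highest control mean was added after the data were seen.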

Additional observations from a re-analysis of the deposited data

How the results depend on the processing

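Under the alternatives, no member was lower in the mutants by either limma rule or by SAM. The count of members that passed the adjusted limma test, 2 with all arrays, ran from 0 to 2 when an array was left out: 0 without control replicate 1, control replicate 3 or mutant replicate 3, and 1 without control replicate 2 or mutant replicate 1. It was 5 with array weights, where Chek1 (adjusted p = 0.0288), Claspn (0.0212) and Brca2 (0.0429) passed too, and 1 with the mean of all probe sets of a gene. Of the alternatives in this paragraph, only the fit without mutant replicate 2 has a share of all genes beside it (0.236% higher). A change of the count in the others may therefore not be particular to the members. Claspn also passed with the filter on dim probe sets (0.0482) and without _s_at, _a_at and _x_at probe sets (0.0492). In all of these fits, array weights included, its probe set was the one chosen through its mutant signal. By its probe set of highest control mean the adjusted limma p was 0.527, so these passes are no separate check. With the replicate number as a block the count of members that passed was 0 (adjusted p = 0.0764 for Tex15 and 0.0716 for Rad54l). The labels do not say whether the numbers pair the mice. Same-numbered arrays deviated together with correlations of -0.02, 0.25 and -0.15, and differently numbered ones with -0.29 to 0.38. With 3 mice a group these values cannot decide whether mice were paired. Over the 15 alternatives with an adjusted test, SAM not among them, Tex15 passed in 11 (log2 fold change 2.0 to 2.39) and Rad54l in 8 (0.45 to 1.14).

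With an array left out, the count at an unadjusted p of 0.05 or less from limma ran from 11 to 17. For these fits the share of all genes is given only without mutant replicate 2 (11 members, background 6.29%). The count without overlap ran from 16 to 20, but leaving out an array can only keep or raise it, so it is no check. The median ran from 0.26 to 0.39 in these fits. SAM gave 15. The filter on dim probe sets left 18 members, of which 9 were higher at an unadjusted limma p and 10 without overlap. Apart from the probe set of highest control mean, no share of all genes is given for the alternatives that kept every array. Their counts thus have no background beside them. Signs turned in 6 members whose fold change was near 0, and in none of the other 24. With an array left out Fancm ran from -0.00655 to 0.0696, Nbn from -0.00654 to 0.13, Chek2 from -0.0356 to 0.27, Atr from -0.0137 to 0.15, Fancb from -0.051 to 0.26 and Rad51ap1 from -0.095 to 0.047. With array weights Nbn had -0.0132, Fancb -0.0366 and Rad51ap1 0.000416. Rad51ap1 had 0.00628 after quantile normalization, 0.63 without _s_at, _a_at and _x_at probe sets and 0.51 with the mean of probe sets, where Atr had -0.21. The cause of these changes was not tested.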

Other observations

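Leukocyte and blood markers were read beside the repair genes, since germinal centre B cells divide and repair DNA. None of these lists had a gene past the adjusted limma test. The median of 7 plasma cell markers, relative to the control mean, was -1.21, -1.14 and -0.95 in mutant replicates 1, 2 and 3. At a limma p of 0.05 or less before adjustment 5 of the 7 were lower (6.18% of all genes). By the same rule 1, Sdc1, was higher (10.0% of all genes). The 6 germinal centre B cell markers had -0.17, -0.19 and -0.27 and the 8 B cell markers -0.12, -0.22 and -0.08. At the same unadjusted limma p 3 of each were lower (6.18% of all genes), and 2 of the 6 were near background in both groups. Without mutant replicate 2 the counts were 2 of the 6 germinal centre and 1 of the 8 B cell markers (5.61% of all genes). The 7 T cell markers had -0.32, -0.09 and -0.04 and the 9 macrophage markers -0.37, -2.46 and -0.16, in the same order. Yet 2 of the 9, Cd68 and Cd14, were higher at that unadjusted limma p (10.0% of all genes) and none lower (6.18% of all genes). The 8 neutrophil markers had 0.21, 0.14 and 0.17 and the 4 erythroid markers 0.09, 0.22 and 0.13.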
